A study of Mus musculus with 10 samples.

Results

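Bile acid synthesis and transport were followed through 10 genes, chosen by symbol, among the 31053 genes counted in 10 spatial transcriptomic sections of 7 mouse tissues. The genes were Cyp7a1, Cyp8b1, Cyp27a1 and Cyp7b1 (synthesis), Slc27a5 and Baat (conjugation), Slc10a1 and Slco1b2 (uptake from blood), Abcb11 (export into bile) and Nr0b2 (repression of synthesis). Frozen sections of 10 µm were placed on Visium slides, on which barcoded spots capture polyadenylated RNA and count it as unique molecular identifiers (UMIs). NEJ146 had 4 sections, and NEJ638, NEJ654, NEJ677, NEJ634, NEJ723 and NEJ687 had 1 section each.

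The labels call every tissue hepatoblastoma and do not say which is tumor and which is normal liver. The study's text names NEJ146, NEJ634, NEJ687 and NEJ723 as ABC-Myc tumors and reports 3 healthy mouse livers beside them, without naming these. By that count, NEJ638, NEJ654 and NEJ677 are the healthy livers. ABC-Myc mice carry human c-MYC behind a floxed STOP cassette under the CAG promoter, on a C57BL/6J background, and Alb-Cre, driven by the albumin enhancer and promoter, removes the cassette in cells of the hepatocyte lineage. The labels give no age, sex or time of collection for these sections. Each tissue therefore stood as its own group. The spread between animals was not measured, no test between tissues was made, and each pattern below is a description of these 7 tissues. In a spot, fewer hepatocytes and less RNA per hepatocyte cannot be told apart.

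Hepatocytes turn cholesterol into bile acids by a classic route, which Cyp7a1 opens as the rate-limiting enzyme, and by an alternative route through Cyp27a1 and Cyp7b1. Cyp8b1 makes the precursor of cholic acid and so sets how much of the pool is 12-alpha-hydroxylated. Slc27a5 activates bile acids with coenzyme A, and Baat joins them to taurine or glycine. Slc10a1 (NTCP) and Slco1b2 (OATP1B2) bring bile acids back from portal blood, and Abcb11 (BSEP) pumps them into the canaliculus. When bile acids accumulate, the receptor FXR (Nr1h4) raises Abcb11 and Nr0b2 (SHP), a corepressor that lowers Cyp7a1 and Cyp8b1. In adult liver these steps are distributed unevenly between the portal vein, where blood enters the lobule, and the central vein, where it leaves.

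The 250 bases before the start of transcription are shown for the uptake gene Slco1b2 and the export gene Abcb11, whose levels followed different patterns, and for the repressor Nr0b2 and its target Cyp8b1. They come from RefSeq promoter windows on GRCm38.p6, are written 5′ to 3′ on the gene's strand, and carry in capitals the motifs searched on both strands. These motifs were the inverted repeat of AGGTCA with 1 base between its arms, the kind of site bound by FXR with RXR, here with any base at position 4 of the first arm, TCAAGG, the core of sites bound by Nr5a2 (LRH-1), CAAAGTCCA, an HNF4 site, and GTTAAT, 1 arm of an HNF1 site.
Slco1b2 (chr6:141629268-141629517, plus strand): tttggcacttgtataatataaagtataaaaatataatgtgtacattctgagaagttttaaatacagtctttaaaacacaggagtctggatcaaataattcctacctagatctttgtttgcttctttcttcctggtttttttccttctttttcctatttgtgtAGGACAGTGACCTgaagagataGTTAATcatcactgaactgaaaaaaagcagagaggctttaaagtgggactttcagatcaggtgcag
Abcb11 (chr2:69342617-69342866, minus strand): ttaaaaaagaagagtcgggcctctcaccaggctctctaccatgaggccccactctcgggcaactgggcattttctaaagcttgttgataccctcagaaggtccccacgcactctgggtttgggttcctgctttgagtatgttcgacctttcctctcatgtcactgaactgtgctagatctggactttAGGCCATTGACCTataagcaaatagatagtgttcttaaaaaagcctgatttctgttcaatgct
Nr0b2 (chr4:133553126-133553375, plus strand): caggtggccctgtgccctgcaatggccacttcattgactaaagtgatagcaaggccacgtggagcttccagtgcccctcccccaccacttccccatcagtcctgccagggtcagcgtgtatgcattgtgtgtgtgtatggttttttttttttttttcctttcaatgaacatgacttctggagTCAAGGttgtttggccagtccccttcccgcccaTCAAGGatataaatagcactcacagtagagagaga
Cyp8b1 (chr9:121916306-121916555, minus strand): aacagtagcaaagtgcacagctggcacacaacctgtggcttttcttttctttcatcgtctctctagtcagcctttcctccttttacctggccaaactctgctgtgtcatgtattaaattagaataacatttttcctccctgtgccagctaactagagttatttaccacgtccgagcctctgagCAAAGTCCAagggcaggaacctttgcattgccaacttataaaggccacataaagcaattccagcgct

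The inverted repeat lay from position -88 in the Slco1b2 window and from -63 in the Abcb11 window, with -1 as the last base before the start. It was present in 11 of 32536 distinct promoter windows of the same length (0.0338%), but the free base at position 4 was allowed after the Abcb11 window had been read. The repeat without the free base, whose matches are also matches of the looser form, was in 2 windows (0.00615%) and in none of the members' windows. Nr0b2 held TCAAGG at -68 and -35, a motif of 12.4% of all windows. Cyp8b1 held CAAAGTCCA at -67 (0.387% of windows) and Slco1b2 held GTTAAT at -66 (6.47%). The RefSeq table also held windows for Cyp27a1 and Slc10a1, without a match, and held no entry for Cyp7a1, Cyp7b1, Slc27a5 or Baat. A match is a description of the letters and not a binding site.

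Between 39280329 and 117077925 UMIs were counted over the tissue spots of a section, and median depth ranged from 12133.5 to 28926.5 UMIs per tissue spot. The hepatocyte marker list (8 genes, Alb and Ttr among them) was detected in full in every tissue, so hepatocyte RNA was present throughout. Its summed level was 131941 to 164707 UMIs per 1000000 UMIs (CPM) in NEJ638, NEJ654 and NEJ677 and 41897 to 52368 CPM in the other 4 tissues. The opposite order was seen for the fetal liver list (Afp, Igf2, H19, Dlk1 and Gpc3), at 10.4 to 95.2 CPM in the first 3 tissues and 3834 to 13632 CPM in the other 4, for the erythroid list, at 96.5 to 252 and 923 to 9472 CPM, and for the neutrophil list, at 3.2 to 7.33 and 179 to 695 CPM. Within these lists, the fetal genes H19 and Gpc3 and the erythroid gene Alas2 overlapped between the sets of tissues. The mitochondrial share was 6.78% to 7.22% in the NEJ146 sections and 2.46% to 3.86% in the other tissues. The part of these cells and of RNA quality in the differences between tissues was not tested. In the 6 tissues with position files, spots outside the tissue also held UMIs, and the 10 genes together reached 289 to 3549 CPM there against 355 to 3738 CPM on tissue, with the level off tissue above that on tissue in NEJ634 (932 against 804 CPM) and below it in the other 5. The part of such RNA in the levels below was not tested.

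All 10 genes had their lowest CPM in NEJ723, although Cyp7a1 and Cyp7b1 overlapped other tissues there. The share of all genes with their lowest level in NEJ723 was not counted. Of the hepatocyte list, Alb, Apoa2, Fgb and Serpinc1 were also lowest there, and Ttr, Apoa1, Apoh and Ahsg were not. Of the 10 genes, 5 separated NEJ638, NEJ654 and NEJ677 from the other 4 tissues by at least 2-fold. These 5 were Cyp8b1, Cyp27a1, Slc27a5, Baat and Slco1b2, from both branches of synthesis, both steps of conjugation and 1 step of uptake. Cyp7a1, Cyp7b1 and Slc10a1 had the same order with smaller gaps, down to 0.21 on the log2 scale for Cyp7a1, while the export pump Abcb11 and the repressor Nr0b2 overlapped between the tissues. The share of all genes in that order at any gap was not counted. A gene was called when its lowest level in NEJ638, NEJ654 and NEJ677 exceeded its highest level in the other 4 tissues 2-fold on the log2(CPM + 1) scale. Of 8021 genes that averaged 10 CPM or more over the 7 tissues, 4.76% were called higher by this rule and 9.71% lower, against 5 of 10 and 0 of 10 of these genes, all of which passed the filter. Cyp7b1, under 10 CPM in each of the other 4 tissues, passed only through NEJ638, NEJ654 and NEJ677, so it could not have been called lower. Of the other 4 tissues, only NEJ146 and NEJ634 had more than 10 CPM of Cyp7a1. The median log2 ratio of the mean levels was 2.71 for the 10 genes and -0.41 for all genes tested.

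Cyp7a1, which commits cholesterol to bile acids, was most abundant in NEJ638 with 114 CPM, followed by 29.4 CPM in NEJ654 and 15.3 CPM in NEJ677. In the other tissues it was 13.1 ± 1.31 CPM in NEJ146 (mean ± SD, n = 4 sections of 1 tissue), 12.2 CPM in NEJ634, 2.37 CPM in NEJ687 and 2.27 CPM in NEJ723. NEJ638 thus stood far above the other 6 tissues, whereas NEJ677, at 14.1 to 16.5 CPM by its exact 95% Poisson interval, overlapped section 2 of NEJ146 (15.01 CPM) and not its other 3 sections. NEJ634 (11.3 to 13.1 CPM) overlapped those 3 sections and not section 2. The intervals of NEJ687 (1.99 to 2.80 CPM) and NEJ723 (1.84 to 2.76 CPM) also overlapped. Such intervals hold only the counting error, and the SD of NEJ146 holds only differences between sections of 1 tissue.

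Cyp8b1 ran in the opposite order among the first 3 tissues, with 95.4 CPM in NEJ638, 266 CPM in NEJ654 and 425 CPM in NEJ677. Its level was 27.2 ± 5.75 CPM in NEJ146, 16.3 CPM in NEJ634, 6.53 CPM in NEJ687 and 5.04 CPM in NEJ723, and no neighbouring pair in this order had overlapping intervals. The gap between the 2 sets of tissues was 1.77 on the log2 scale, and 2.48 without NEJ146. The ratio of Cyp8b1 to Cyp7a1 UMIs rose from 0.838 (95% interval 0.806 to 0.870) in NEJ638 to 9.06 (8.54 to 9.61) in NEJ654 and 27.8 (25.7 to 30.3) in NEJ677. In the other 4 tissues it stayed between 1.34 and 2.76, with 2.08 ± 0.385 in NEJ146.

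The same 3 tissues differed in genes of the circadian clock and in sex-linked genes. Dbp, a clock output factor, was 209 CPM in NEJ638, 2.99 CPM in NEJ654 and 48.2 CPM in NEJ677, and Arntl, a core clock activator, was 1.41, 18.8 and 5.24 CPM in the same order. Xist was detected in NEJ638 and NEJ654 (46.8 and 49.5 CPM), and the Y-linked gene Ddx3y in NEJ677 (24.2 CPM). The part of time of day or sex in the Cyp7a1 and Cyp8b1 levels was not tested, and with 1 tissue each these factors cannot be told apart.

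Cyp27a1, the sterol 27-hydroxylase of the alternative route, was found at 219 CPM in NEJ638, 298 CPM in NEJ654 and 281 CPM in NEJ677. It reached 76.3 ± 6.32 CPM in NEJ146, 55.2 CPM in NEJ687, 34.3 CPM in NEJ634 and 17.96 CPM in NEJ723, and no neighbouring pair in this order overlapped. The gap was 1.51 on the log2 scale. Among the synthesis genes, Cyp27a1 varied least over the first 3 tissues, by 1.36-fold on the CPM + 1 scale.

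Cyp7b1, the oxysterol 7-alpha-hydroxylase that follows Cyp27a1, was rare, with 7.27 CPM in NEJ638, 22.0 CPM in NEJ654 and 44.7 CPM in NEJ677. It was 3.84 ± 0.831 CPM in NEJ146, and in NEJ634, NEJ687 and NEJ723 it was 0.814, 0.766 and 0.550 CPM, levels that rest on 46, 44 and 24 UMIs and whose intervals overlapped. The gap of 0.77 missed the 2-fold call because NEJ638 and NEJ146 lay close together, and without NEJ146 it was 2.19. Among the first 3 tissues, Ddx3y was detected in NEJ677 (24.2 CPM). Among the other 4, it was detected in NEJ723 and NEJ687 (23.7 and 20.9 CPM), and Xist in NEJ146 and NEJ634 (38.9 ± 7.09 and 63.9 CPM). The part of sex in the Cyp7b1 levels was not tested.

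Both conjugation genes were called, with different orders of tissues. Slc27a5 was found at 703 CPM in NEJ638, 998 CPM in NEJ654 and 762.2 CPM in NEJ677, and at 231 ± 37.7 CPM in NEJ146, 152 CPM in NEJ687, 85.8 CPM in NEJ634 and 16.7 CPM in NEJ723. NEJ723 stood apart at the low end, and the other 3 tissues of its set spanned 85.8 to 231 CPM. Baat ran at 168 CPM in NEJ638, 203 CPM in NEJ654 and 227 CPM in NEJ677, and at 44.7 ± 4.67 CPM in NEJ146, 24.9 CPM in NEJ634, 18.7 CPM in NEJ687 and 7.38 CPM in NEJ723. The gaps between the sets were 1.60 for Slc27a5 and 1.89 for Baat on the log2 scale, and 2.20 and 2.71 without NEJ146. The ratio of Baat to Slc27a5 UMIs ranged from 0.123 in NEJ687 to 0.442 in NEJ723.

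The 2 uptake transporters separated from each other. Slco1b2 was nearly level over NEJ638, NEJ654 and NEJ677 (766, 774 and 705 CPM) and much lower elsewhere, at 138 ± 8.82 CPM in NEJ146, 100.3 CPM in NEJ634, 64.3 CPM in NEJ687 and 36.8 CPM in NEJ723. Its gap of 2.35 on the log2 scale was the largest of the 10 genes and the only one that also passed 4-fold. Without NEJ146 the gap was 2.80, and Baat (2.71), Cyp8b1 (2.48), Slc27a5 (2.20) and Cyp7b1 (2.19) passed 4-fold as well. NEJ146 had the highest level of each of these genes among the other 4 tissues, so leaving it out widens their gaps. The share of all genes that passed 4-fold, with or without NEJ146, was not counted. Slc10a1 was found at 683 CPM in NEJ638, 643 CPM in NEJ654 and 617 CPM in NEJ677, and at 330 ± 22.8 CPM in NEJ146, 362 CPM in NEJ687, 238 CPM in NEJ634 and 144 CPM in NEJ723. NEJ687 and section 1 of NEJ146 (361 CPM) had overlapping intervals, and the gap was 0.77. The ratio of Slco1b2 to Slc10a1 UMIs was 1.12 to 1.20 in the first 3 tissues and 0.178 to 0.422 in the other 4, with no overlap.

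Abcb11, the bile salt export pump, was highest in NEJ687 at 486 CPM, followed by 469 CPM in NEJ677, 456 CPM in NEJ654, 455 ± 32.3 CPM in NEJ146, 296 CPM in NEJ638, 280 CPM in NEJ634 and 116 CPM in NEJ723. The 4 highest tissues lay within the range of the NEJ146 sections (421 to 496 CPM). The ratio of Abcb11 to Slc10a1 UMIs was 0.434 to 0.761 in the first 3 tissues and 0.802 to 1.38 in the other 4. Its intervals in NEJ677 (0.747 to 0.776) and NEJ723 (0.772 to 0.832) overlapped. An antisense transcript, Gm13613, and a pseudogene, Gm13614, overlap Abcb11, and their reads were not told apart here.

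Nr0b2 was found at 20.2 CPM in NEJ638, 48.3 CPM in NEJ654 and 56.7 CPM in NEJ677, and at 55.9 CPM in NEJ687, 39.1 ± 2.94 CPM in NEJ146, 11.7 CPM in NEJ634 and 7.77 CPM in NEJ723. NEJ677 and NEJ687 had overlapping intervals (54.4 to 59.1 and 53.9 to 57.8 CPM). Over the 7 tissues, Nr0b2 followed Abcb11 (Pearson's r = 0.92 of log2 levels) more closely than any synthesis gene (r = 0.12 to 0.68). The tissue with the highest Cyp7a1, NEJ638, had less Nr0b2 than NEJ654, NEJ677, NEJ146 and NEJ687, and NEJ723 was lowest in both. These correlations describe 7 points and were given no test. By the labels' processing notes, NEJ146 was processed with other software than the other tissues, and its tissue spots were called by a UMI threshold.

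**Figure D1:**
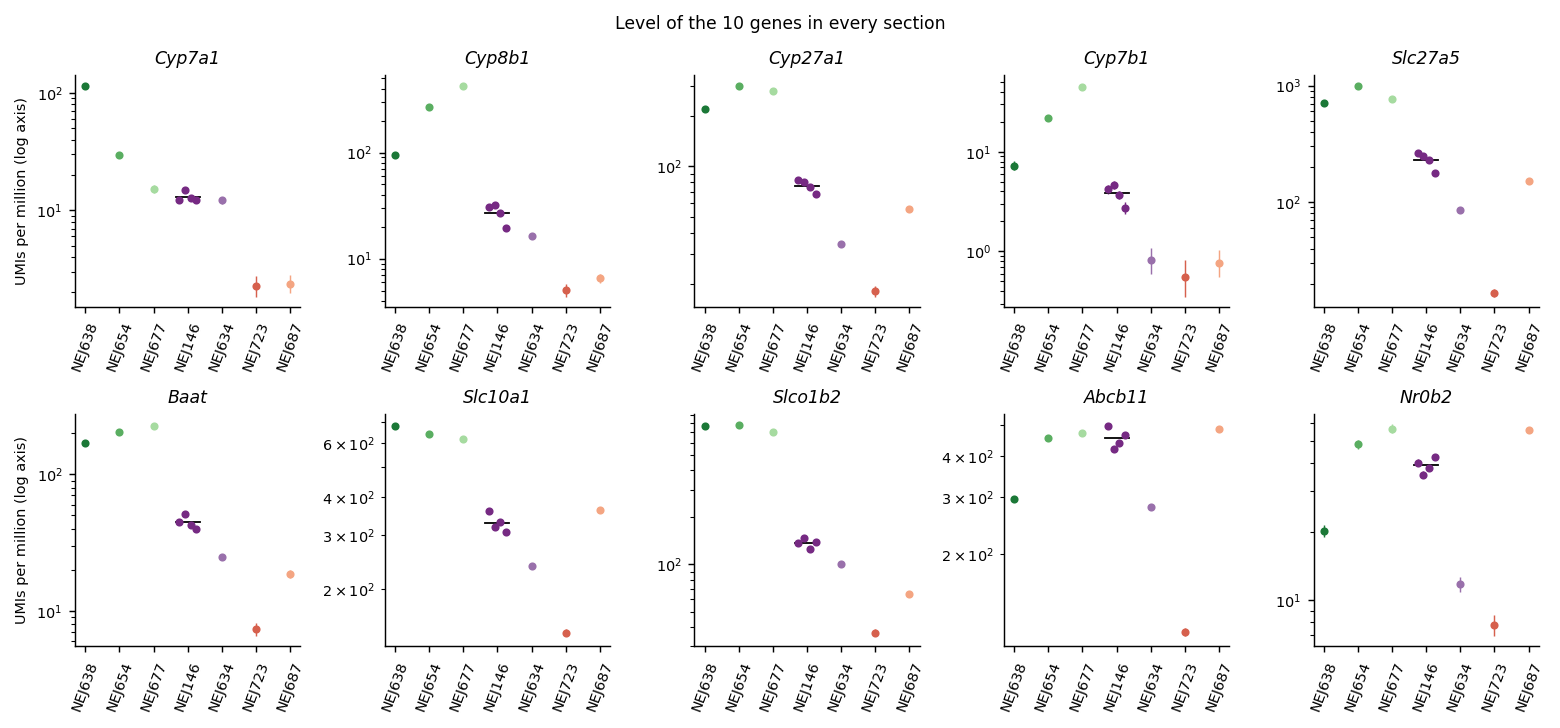
Level of each gene (CPM, log axis) in every section, with exact 95% Poisson intervals and a bar for the mean of the 4 NEJ146 sections. Slco1b2 lies at 705 to 774 CPM in NEJ638, NEJ654 and NEJ677 and at or below 147 CPM in every other section, whereas Abcb11 is highest in section 1 of NEJ146 (496 CPM) and in NEJ687 (486 CPM).

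Because the summed hepatocyte list was lower in the other 4 tissues, the 10 genes were also counted per 10000 UMIs of that list. Alb made up 39.2% to 52.0% of the sum in the first 3 tissues and 16.5% to 28.0% in the others and was the only gene of the list to be called, while Apoh, Fgb and Serpinc1 overlapped between the sets. None of the 10 was then called higher, against 0.711% of all genes, and none was called lower, against 71.1%. The levels of Slco1b2 were 47.0 to 53.6 UMIs in the first 3 tissues and 7.84 to 33.3 in the others, and those of Baat 11.8 to 17.2 against 1.57 to 10.7. Baat in NEJ146 (10.7 ± 1.02) lay just over 1 SD below NEJ638, and Cyp8b1 in NEJ146 (6.44 ± 0.672) differed from NEJ638 (6.67) by less than the SD of its sections. Slc27a5 in NEJ146, at 54.8 ± 2.49 UMIs, fell between NEJ638 (49.2) and NEJ677 (57.8), whereas NEJ687 (29.0), NEJ634 (18.3) and NEJ723 (3.55) lay below all of the first 3 tissues. On this scale Abcb11 was 110.1 ± 17.7 UMIs in NEJ146 and 92.8 in NEJ687 against 20.7 to 35.6 in the first 3 tissues, and Nr0b2 was 9.51 ± 1.97 and 10.7 against 1.41 to 4.30. The remaining 2 tissues did not share this, since NEJ723 lay within the range of the first 3 for Abcb11 (24.7) and Nr0b2 (1.66), and NEJ634 lay above it for Abcb11 (59.7) and within it for Nr0b2 (2.49). Unlike in CPM, Abcb11 and Nr0b2 were lowest in NEJ638, and Cyp7a1 was lowest in NEJ687 (0.452 against 0.483 in NEJ723). With Alb left out of the list, a choice made after seeing the data, the list came to 73111 to 80279 CPM in the first 3 tissues and 32334 to 43736 CPM in the others. Of the 10 genes only Slco1b2 was then called higher (87.8 to 105 UMIs per 10000 against 9.41 to 42.9), against 1.23% of all genes, and none was called lower, against 45.5%. These denominators are given because the share of hepatocytes in a spot was not measured apart from these genes.

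Within NEJ638, NEJ654 and NEJ677, 4 of the 10 genes rose from the portal to the central end of the lobule: Cyp7a1, Cyp27a1, Cyp7b1 and Slco1b2. Slc27a5, Baat, Slc10a1, Abcb11 and Nr0b2 were nearly flat, and Cyp8b1 was higher in bin 4 of 5 than at either end. Tissue spots with at least 500 UMIs were ranked by the pericentral genes Glul, Cyp2e1, Cyp1a2, Oat and Slc1a2 against the periportal genes Cyp2f2, Hal, Hsd17b13, Ass1 and Pck1, and cut into 5 bins of equal size. A gene was called when the outermost bins differed at least 1.5-fold in the same direction in each of the 3 tissues. Of 7108 genes that averaged 10 CPM or more there, 2.0% were called pericentral and 1.49% periportal, against 4 and 0 of the 10 genes. The 4 became 3, without Cyp7b1, with 10 bins, with spots thinned to 5000 UMIs and with all spots, the last added after seeing the data. Markers left out of the ranking fell on their known sides, with Gulo, Lect2, Rhbg and Rgn called pericentral and Gls2, Sds, Ctsc, Aldh1b1 and Cdh1 called periportal, and Axin2 under the filter on level. Other lists moved along the same axis. From the portal to the central bin, bile duct genes went from 339 to 41.8 CPM in NEJ638, 152 to 23.2 CPM in NEJ654 and 182 to 22.2 CPM in NEJ677, stromal genes from 536 to 694, 313 to 475 and 226 to 341 CPM, and the mitochondrial share from 3.03% to 2.24%, 3.49% to 2.64% and 3.14% to 2.33%. Their part in the gradients was not tested. Spots are larger than a hepatocyte and share RNA with their surroundings, so the folds describe bins of spots.

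Slco1b2 had the steepest gradient in absolute level. It climbed through the 5 bins from 437 to 562, 727, 881 and 1122 CPM in NEJ638, from 448 to 601, 722, 893 and 1171 CPM in NEJ654, and from 366 to 453, 661, 878 and 1174 CPM in NEJ677. The central bin exceeded the portal bin by 2.56-, 2.61- and 3.2-fold. The counting interval of the log2 difference in NEJ677 (1.62 to 1.74) lay above those of NEJ638 (1.31 to 1.41) and NEJ654 (1.33 to 1.44). Slc10a1, which takes up conjugated bile acids from the same blood, stayed between 544 and 693 CPM in all 15 bins, with a slight fall towards the central end in NEJ654 and NEJ677 (-0.10 and -0.30 on the log2 scale) and none in NEJ638 (0.04). The ratio of Slco1b2 to Slc10a1 UMIs accordingly went from 0.652 to 1.63 in NEJ638, from 0.684 to 1.92 in NEJ654 and from 0.546 to 2.16 in NEJ677.

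Cyp7a1 was pericentral in all 3 tissues despite their unequal levels. It rose from 69.7 to 149 CPM in NEJ638, from 12.9 to 48.6 CPM in NEJ654 and from 6.39 to 22.1 CPM in NEJ677. The log2 differences were 1.09, 1.83 and 1.64, with 95% counting intervals of 0.96 to 1.22, 1.54 to 2.12 and 1.18 to 2.10. The interval of NEJ638, where the gene was most abundant, lay below that of NEJ654 and overlapped that of NEJ677.

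Cyp27a1 rose in all 3 tissues, from 143 to 282 CPM in NEJ638, 192 to 393 CPM in NEJ654 and 173 to 399 CPM in NEJ677 (log2 differences of 0.98, 1.02 and 1.20). The counting interval of NEJ677 (1.112 to 1.297) lay above those of NEJ638 (0.889 to 1.069) and NEJ654 (0.943 to 1.106). Cyp7b1 rose from 3.76 to 12.8 CPM in NEJ638, from 11.6 to 32.6 CPM in NEJ654 and from 34.3 to 53.7 CPM in NEJ677. Its difference in NEJ677, 0.63 with an interval of 0.41 to 0.85, lay just inside the threshold of 0.58, while the others were 1.54 and 1.41. Raising the threshold to 2-fold left only Cyp7a1 and Slco1b2, since Cyp27a1 in NEJ638 and Cyp7b1 in NEJ677 lay under it.

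Cyp8b1 had its highest level in bin 4, next to the central one, in each of the 3 tissues, although the counting intervals of bins 3 and 4 overlapped in NEJ638 and NEJ654. Its bins read 92.7, 102, 106, 107 and 74.2 CPM in NEJ638, 237, 258, 299.6, 311 and 237 CPM in NEJ654, and 311, 369, 472, 528 and 452 CPM in NEJ677. Bin 4 exceeded the central bin by 1.44-, 1.32- and 1.17-fold and the portal bin by 1.15-, 1.31- and 1.70-fold. The highest level lay in bin 4 of all 3 tissues for 70 of the 7108 genes (0.985%), and in the central bin of all 3 for 14.5%, among them Cyp27a1, Cyp7b1 and Slco1b2. From end to end Cyp8b1 therefore differed in sign, at -0.32 in NEJ638 (interval -0.45 to -0.18), 0.00 in NEJ654 and 0.54 in NEJ677 (0.46 to 0.61). The ratio of Cyp8b1 to Cyp7a1 UMIs fell from the portal to the central bin in each tissue, from 1.33 to 0.497, from 18.3 to 4.87 and from 48.7 to 20.5.

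Slc27a5 was even along the axis, at 680 to 716 CPM in NEJ638, 980 to 1029 CPM in NEJ654 and 733 to 784 CPM in NEJ677, with end-to-end differences of at most 0.08 on the log2 scale. Baat fell slightly towards the central bin in NEJ638 (180.5 to 144 CPM) and rose slightly in NEJ654 (186 to 199.8 CPM) and NEJ677 (207 to 233 CPM). Abcb11 was a little higher at the portal end in all 3 tissues, at 318 against 268 CPM, 499.97 against 392 CPM and 496 against 437 CPM, and all 3 intervals of the difference lay below 0 without reaching 1.5-fold. Nr0b2 ran the same way in NEJ638 (24.6 against 19.5 CPM) and NEJ654 (50.5 against 43.6 CPM), while the interval of NEJ677 (-0.23 to 0.15) held 0. The summed hepatocyte list fell from the portal to the central bin, mainly through Alb, while Ttr, Apoa2 and Apoh were slightly higher at the central end of all 3 tissues. The sum went from 152088 to 131696 CPM in NEJ638, 184619 to 140852 CPM in NEJ654 and 141081 to 114831 CPM in NEJ677, and median depth was 12042 against 15712, 18071 against 19332 and 13897 against 15813 UMIs. The part of these shifts in the small differences of Baat, Abcb11 and Nr0b2 was not tested.

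**Figure D2:**
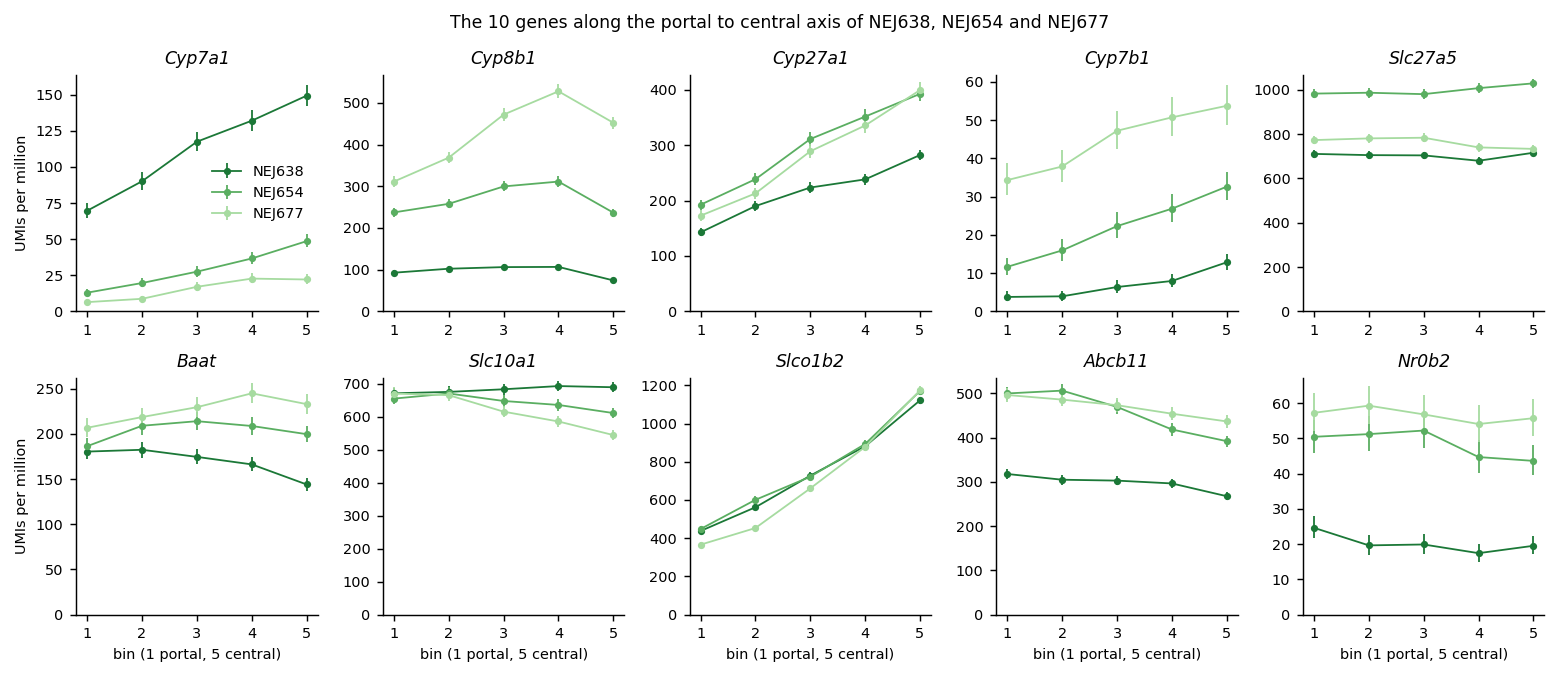
Level of each gene (CPM) in 5 bins of spots ranked from the portal (1) to the central (5) end in NEJ638, NEJ654 and NEJ677, with exact 95% Poisson intervals. Slco1b2 climbs from 366 to 448 CPM in bin 1 to 1122 to 1174 CPM in bin 5, Slc10a1 stays within 544 to 693 CPM, and Cyp8b1 lies higher in bin 4 than in bins 1 and 5 of each tissue, with overlapping intervals of bins 3 and 4 in NEJ638 and NEJ654.

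The lobular axis was not drawn in the other 4 tissues, but the 10 genes varied more between areas of NEJ146 and NEJ634 than in the first 3 tissues, as did the median gene. In square patches of up to 36 neighbouring spots, the coefficient of variation beyond counting error was 0% to 23.1% for the 10 genes in NEJ638, NEJ654 and NEJ677, where the median gene of at least 10 CPM had 9.68%, 6.79% and 4.48%. In NEJ146 (mean of 4 sections) it was 93.4% for Cyp8b1, 89.2% for Cyp7b1, 81.3% for Baat, 68.7% for Cyp7a1, 57.4% for Cyp27a1, 55.0% for Slco1b2 and 48.3% for Slc27a5, but 28.3% for Nr0b2, 21.4% for Abcb11 and 17.6% for Slc10a1. The median gene had 14.6% to 16.8% in these sections, close to Slc10a1. In NEJ634 all 10 genes had 36.1% to 78.1% against 11.4% for the median gene, and in NEJ687 Baat (63.6%) and Cyp8b1 (57.5%) exceeded the other 8 (up to 24.3%). In NEJ723, in which every gene was low, it was 0% for Cyp8b1, Cyp7b1, Abcb11 and Nr0b2 and 13.7% to 42.8% for the other 6, against 7.76% for the median gene, with the highest value for Cyp7a1 at 2.27 CPM.

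The varying genes of NEJ146 shared their areas. When patches were ranked by the summed fetal liver genes, which include none of the 10, and divided into 5 equal groups, the group with the lowest fetal signal held more of every synthesis gene, both conjugation genes and Slco1b2 than the group with the highest. Over the 4 sections, Baat was 90.4 ± 3.09 against 23.9 ± 5.26 CPM, Cyp8b1 56.1 ± 6.22 against 11.9 ± 2.70 CPM, and Slco1b2 227 ± 12.2 against 87.4 ± 11.8 CPM. Cyp27a1 was 130 ± 9.84 against 48.0 ± 6.77 CPM, Slc27a5 369 ± 53.3 against 157 ± 34.8 CPM, Cyp7a1 22.6 ± 0.882 against 8.82 ± 1.14 CPM and Cyp7b1 7.88 ± 0.8294 against 2.11 ± 0.673 CPM. In each of the 4 sections these 7 genes differed at least 2-fold.

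Slc10a1 (319 ± 27.9 against 318 ± 56.3 CPM), Abcb11 (386 ± 12.5 against 459 ± 83.7 CPM) and Nr0b2 (36.1 ± 1.41 against 35.4 ± 7.40 CPM) did not follow, with signs that differed between sections. Of the 9 genes that averaged 10 CPM or more in NEJ146, 6 were at least 2-fold higher in the low-fetal patches of every section, against 2.14% of 7512 genes, and 0 were lower, against 0.546%. Of these 6, Cyp7a1 was under 10 CPM in the high-fetal patches (8.82 ± 1.14 CPM). The 6 became 3 with 3 equal groups of patches and 2 at 3-fold. The median log2 difference was 1.27 for these genes and -0.16 for all genes. The 4 sections come from 1 tissue, so they are not independent of each other. Whether they cover the same areas was not tested.

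Over patches, Baat correlated with Slco1b2 at r = 0.79 to 0.88 in the 4 sections but with Slc10a1 at -0.38 to -0.11 and with Abcb11 at -0.68 to -0.46, and Slc10a1 correlated with Abcb11 at 0.70 to 0.80. The summed pericentral axis genes rose in the same areas, from 217 ± 27.7 to 1019 ± 73.0 CPM, the periportal axis genes from 1745 ± 135 to 2733 ± 228 CPM and the hepatocyte list from 38664 ± 5621 to 50860 ± 5978 CPM. Stromal genes were 665 ± 19.3 against 425 ± 173 CPM. Over patches, the stromal list correlated with Baat at r = 0.47 to 0.75, with Slc10a1 at -0.67 to -0.53 and with Abcb11 at -0.79 to -0.67, and the bile duct list at 0.40 to 0.64, -0.53 to -0.49 and -0.67 to -0.60. The part of these cells in the levels was not tested. Even in the low-fetal patches, 5 of these 7 genes had means below their levels in NEJ638, NEJ654 and NEJ677. Cyp7a1 there (22.6 ± 0.882 CPM) exceeded its level in NEJ677 (15.3 CPM), and Cyp7b1 (7.88 ± 0.8294 CPM) lay within 1 SD of its level in NEJ638 (7.27 CPM). Whether these areas hold another kind of hepatocyte was not tested.

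**Figure D3:**
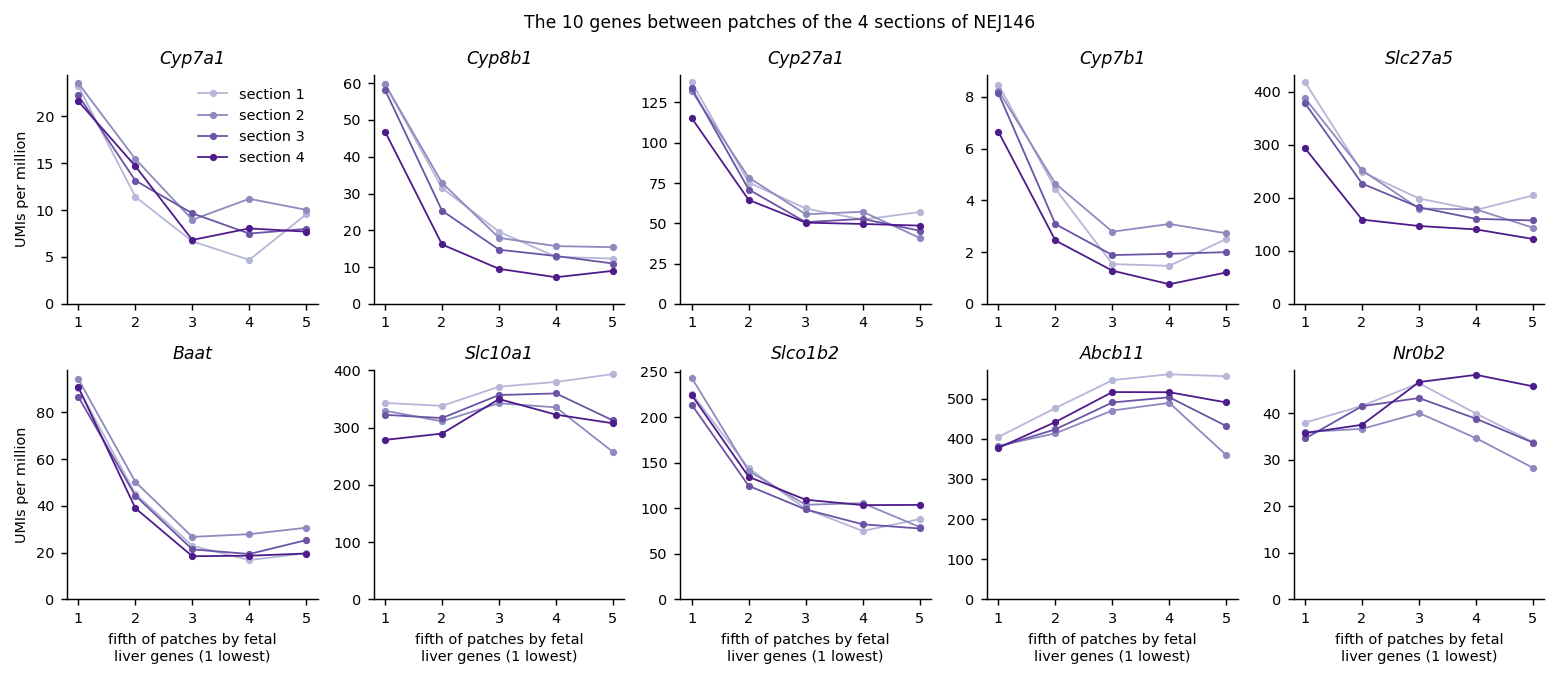
Level of each gene (CPM) in 5 equal groups of patches, 1 line for each of the 4 NEJ146 sections, ranked from the lowest (1) to the highest (5) summed level of the fetal liver genes. Cyp8b1 falls from 56.1 ± 6.22 to 11.9 ± 2.70 CPM and Baat from 90.4 ± 3.09 to 23.9 ± 5.26 CPM, while Slc10a1 stays at 319 ± 27.9 and 318 ± 56.3 CPM.

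**Figure D4:**
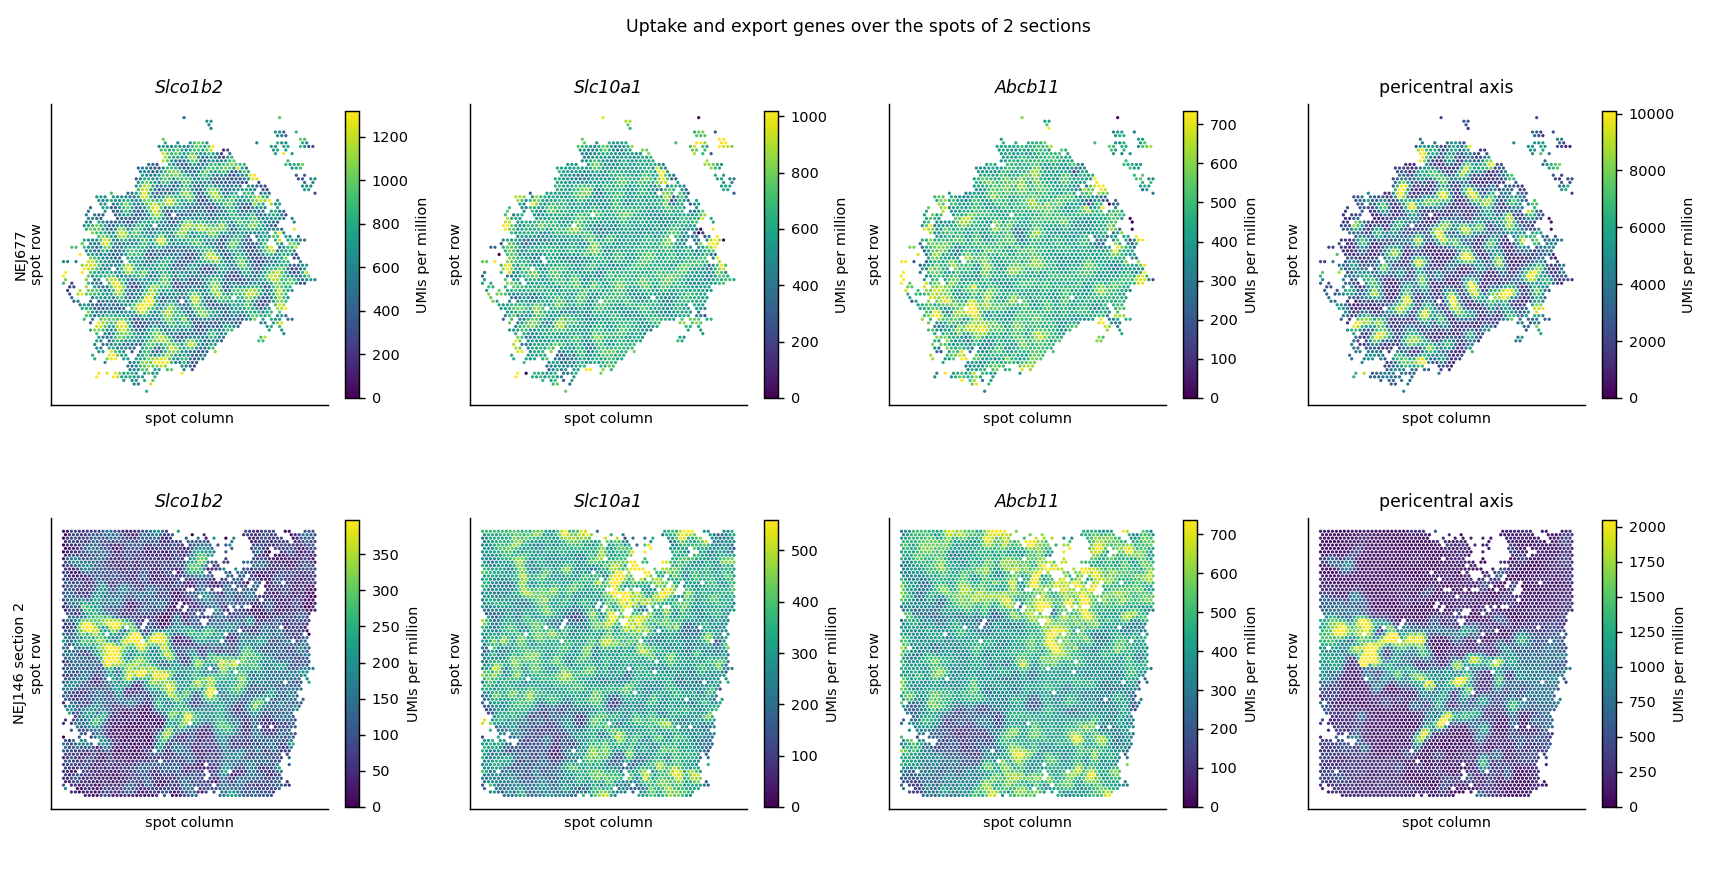
Maps of Slco1b2, Slc10a1, Abcb11 and the summed pericentral axis genes over tissue spots of NEJ677 (upper maps) and section 2 of NEJ146 (lower maps), each spot colored by the CPM of itself and its adjacent spots, with the color scale ending at percentile 99. Slco1b2 follows the pericentral genes in both sections, as small areas throughout NEJ677 and as larger areas in the middle of NEJ146, where the highest Slc10a1 and Abcb11 spots lie elsewhere.

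Different genes made up most of the fetal signal in the tissues. H19 gave 6062 of 8198 CPM in NEJ146 and 9068 of 13632 CPM in NEJ687. Afp gave 4248 of 7502 CPM in NEJ634 and 3280 of 3834 CPM in NEJ723. By its own ranking, NEJ634 had the opposite direction to NEJ146: 9 of the 10 genes, all but Cyp7b1, were lower in the patches with the lowest fetal signal. All 9 were also at least 2-fold lower and averaged 10 CPM or more, against 2.56% of 8530 genes that were 2-fold lower in this section, and none was 2-fold higher, against 2.36%. Of the 9, Cyp7a1 (3.78 against 16.7 CPM) and Nr0b2 (7.36 against 17.1 CPM) passed the filter only through the patches with more fetal signal, where they were higher. The median log2 difference was -1.76 for these 9 and 0.13 for all genes tested. Slco1b2 was 31.4 CPM in the patches with the lowest fetal signal against 165 CPM in those with the highest, Slc27a5 32.1 against 142 CPM, and Abcb11 162 against 437 CPM. The low-fetal patches also held fewer erythroid UMIs (366 against 1534 CPM) and more stromal ones (1433 against 906 CPM), with the hepatocyte list at 45216 against 43588 CPM. The pericentral axis genes (129 against 351 CPM) and the periportal axis genes (1034 against 1736 CPM) were lower there as well. In NEJ687, Baat (33.9 against 9.10 CPM) and Cyp8b1 (10.6 against 3.90 CPM) were higher in the low-fetal patches, and Slco1b2 (79.0 against 48.4 CPM) and Slc27a5 (185 against 126 CPM) by less than 2-fold. Of the 7 that averaged 10 CPM or more, only Baat was at least 2-fold higher, against 2.23% of all genes, and none was 2-fold lower, against 0.0981%. Cyp7a1 was 1.55 against 2.30 CPM, and the ratios of Cyp27a1 and Cyp7b1 on the CPM + 1 scale were 1.16 and 1.18. Nr0b2 was higher (64.6 against 47.1 CPM), and Abcb11 (414 against 556 CPM) and Slc10a1 (336 against 386 CPM) were lower in the low-fetal patches. Erythroid genes were at 9382 against 3212 CPM there and stromal genes at 395 against 239 CPM. In NEJ723 the ratios of low-fetal to high-fetal patches lay between 0.737 and 1.38, and 0.156% of all genes were at least 2-fold higher in the low-fetal patches. Each of these 3 tissues is 1 section, and the parts of erythroid and stromal cells in the differences were not tested.

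Of 39 further bile acid genes, 32 passed the filter on level over the 7 tissues, with 5 of them called higher in NEJ638, NEJ654 and NEJ677 (Akr1c6, Cyp2c70, Slco1a1, Sult2a8 and Nr1i3) and 2 lower, against 4.76% and 9.71% of all genes tested, and 25 were not called. Akr1c6, a hydroxysteroid dehydrogenase, stood at 1367 to 1727 CPM against 0.435 to 133 CPM, and Cyp2c70, which makes the muricholic acids of rodents, at 581.6 to 802 against 26.8 to 129 CPM. Sult2a8, a bile acid sulfotransferase, had the largest gap of the list (5.28 on the log2 scale), at 363 to 477 against 1.49 to 8.38 CPM. Slco1a1, a further uptake transporter, was found at 5.96 CPM in NEJ638, 74.0 CPM in NEJ654 and 267 CPM in NEJ677 and at most at 0.174 CPM elsewhere. Cyp7b1, Cyp8b1, Baat, Abcb11 and Nr0b2 had the same order over these 3 tissues. Slco1a1 and Sult2a8 passed the filter on level only through NEJ638, NEJ654 and NEJ677, the tissues in which they were called higher. Nr1i3 (CAR), a xenobiotic receptor, stood at 104 to 202 against 13.6 to 43.6 CPM.

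The 2 genes called lower were Slc51b and Klb. Slc51b, a subunit of the basolateral bile acid exporter that FXR raises, was 3.08 to 8.44 CPM in NEJ638, NEJ654 and NEJ677 and 70.6 to 113 CPM in the other 4, while its partner Slc51a was at most 0.296 CPM in any tissue. Slc51b passed the filter on level only through the other 4 tissues. Klb, the coreceptor for the intestinal hormone Fgf15, was 10.8 to 16.6 against 37.7 to 55.0 CPM. Fgf15 itself was 2.25 CPM in NEJ687, 0.743 CPM in NEJ634 and 0.122 CPM in NEJ146, with 0 UMIs in NEJ638, NEJ654, NEJ677 and NEJ723. The FXR gene Nr1h4 (86.9 to 134 against 35.4 to 49.8 CPM), Nr5a2 (29.4 to 38.9 against 16.6 to 22.6 CPM) and Hnf4a (166 to 200.3 against 123 to 178 CPM) were not called.

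Along the axis, 2 of the 31 pathway genes that passed the filter in NEJ638, NEJ654 and NEJ677 were called pericentral, Akr1c6 (log2 differences of 1.38, 1.13 and 1.004) and Slco1a1 (1.85, 2.004 and 0.92), and none periportal, against 2.0% and 1.49% of all genes tested. The other 29 were not called, among them Nr1h4 (0.01, 0.23 and 0.07) and the canalicular exporter Abcc2 (0.57, 0.58 and 0.78). Slco1a4, an uptake transporter of the same family, was not called (0.48, 0.18 and 0.20). Cyp39a1, an oxysterol hydroxylase, was the member of the list with the lowest median difference among those that passed (-0.22, -0.54 and -1.11). In the low-fetal areas of NEJ146, Akr1c6, Slco1a4, Ephx1, Abcc3 and Cyp3a11 were called higher, 5 of the 30 that passed, against 2.14% of all genes.

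The genes whose levels over the 7 tissues were most like those of Cyp7a1 were Nfic, Fbxo3 and Ccnd1 (Pearson's r = 0.98, 0.96 and 0.96 of log2 levels). For Slc10a1 they were Asgr1, Scrn3 and Entpd5 (r = 0.99 each), and for Nr0b2 they were Cryl1, Rnf130 and Cept1 (0.95, 0.95 and 0.94). Over the 15 bins, centered within each tissue, the nearest to Cyp7a1 were Rps19, Acsm1 and Sord (r = 0.98 each), to Slc10a1 Mid1ip1, Xbp1 and Itih2 (0.94 each), and to Nr0b2 Ppt2 and Ndufb8 (0.91 and 0.84). For the remaining 7 genes the nearest reached r = 0.983 to 0.999 over tissues and 0.871 to 0.998 over bins. These were the highest among all genes tested, over few points, and were given no test.

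Positions on GRCm38 (GENCODE M21) were chr4:6265612-6275633 for Cyp7a1, chr9:121914356-121916305 for Cyp8b1, chr1:74713574-74737892 for Cyp27a1, chr3:18071950-18243338 for Cyp7b1, chr7:12988346-12998192 for Slc27a5 and chr4:49489422-49506557 for Baat. Slc10a1 lies at chr12:80953183-80968705, Slco1b2 at chr6:141629518-141686646, Abcb11 at chr2:69238282-69342616 and Nr0b2 at chr4:133553376-133556536. A small nuclear RNA gene overlaps Cyp7b1 on the same strand, and apart from it and the genes named for Abcb11 no annotated gene overlapped the 10.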

How the data were processed

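Raw UMI counts per gene and spot were deposited by the authors as unfiltered matrices for 10 sections, without normalization. The labels' processing notes name Space Ranger 1.3 with mm10 for the 6 tissues with 1 section and Cell Ranger 6.0 with no build for NEJ146. Deposited position files gave the in-tissue call of those 6 sections. NEJ146 spots with at least 8000 UMIs were taken as tissue, which keeps 4171 to 4878 of 4992 spots, so its tissue area is uncertain. The in-tissue calls separated spots of low mitochondrial share with an area under the curve of 0.844 to 0.965, and spots of high UMI count with one of 0.578 to 0.928. A spot can hold several cells, and no doublet caller was run.

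UMIs were summed over tissue spots per section and given as CPM. Depth was 39280329 to 117077925 UMIs per section. Intervals are exact 95% Poisson intervals, which cover counting error only. Levels were compared on log2(CPM + 1) with Python 3.11.15, numpy 2.4.6, pandas 2.3.3 and scipy 1.17.1. Calls covered genes that averaged 10 CPM or more. Zonation used 5 bins of spots with at least 500 UMIs. Patches were blocks of 6 rows by 12 columns of the spot grid with at least 18 tissue spots, an analysis added after the data had been seen. Each procedure was tested on simulated counts.

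The 10 genes, the gene lists and the comparisons were chosen with earlier results of these data known. All 10 genes are named, with the other pathway genes that were called, and for Cyp7a1, Slc10a1 and Nr0b2 the 3 most similar genes, of which 1 is not reported here. Alternatives covered the tissue calls, denominators, filters, folds, axis genes, bins and thinning to 5000 UMIs per spot.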

Additional observations from a re-analysis of the deposited data

Results flagged for a closer look

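Cyp8b1 differed in the sign of its end-to-end difference between tissues, at 0.54 on the log2 scale in NEJ677 and -0.32 in NEJ638, where a positive value is higher at the central end. Baat was 0.10 in NEJ654 and 0.17 in NEJ677 against -0.32 in NEJ638. Slc27a5 was 0.066 in NEJ654 and -0.076 in NEJ677. For each of these pairs the 95% counting intervals lay on opposite sides of 0, but with 1 section per tissue the difference between tissues was not tested.

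Outside the tissue, the 10 genes together reached 931.6 CPM in NEJ634, 2817.8 CPM in NEJ638, 289.2 CPM in NEJ723, 3438.0 CPM in NEJ654, 3549.1 CPM in NEJ677 and 1074.9 CPM in NEJ687. On tissue they reached 804 CPM in NEJ634, 3072 CPM in NEJ638, 355 CPM in NEJ723, 3738 CPM in NEJ654, 3603 CPM in NEJ677 and 1203 CPM in NEJ687. Between 6.13% and 41.6% of their UMIs lay there, and the part of this RNA in the levels on tissue was not tested.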

How the results depend on the processing

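Of the 10 genes, the number called higher in NEJ638, NEJ654 and NEJ677 was 0 per UMI of the hepatocyte marker list, 1 with Alb left out of that list after seeing the data, and 1 at 4-fold, and leaving out each NEJ146 section gave 5 to 5. Of the other pathway genes, 3 were higher and 8 lower with the hepatocyte denominator, 3 higher with that denominator without Alb, 12 higher at 1.5-fold, 9 higher without NEJ146, 1 lower with a mean of 50 CPM and 1 lower at 4-fold, and leaving out each section gave 5 to 6 higher and 2 to 2 lower. With 10 bins, with spots thinned to 5000 UMIs and, added after seeing the data, with all spots, 3 of the 10 genes were pericentral. At 2-fold, 2 of the 10 genes and 1 pathway gene were pericentral. With 10 bins, with the axis as the share of pericentral UMIs, and without NEJ638, 4 pathway genes were pericentral, and with a mean of 1 CPM 1 was periportal. Leaving out each tissue gave 4 to 4 of the 10 genes and 2 to 4 pathway genes. Between patches of NEJ146, 3 genes were called with 3 equal groups and 2 at 3-fold, both chosen after seeing the data, and leaving out each section gave 6 to 6. The causes were not tested. The other 120 counts lay within 1.5 times their reported value, and no called value reversed. Among genes not called along the axis, the median difference over tissues changed sign between settings for Cyp8b1 (-0.16 to 0.27 on the log2 scale), Baat (-0.11 to 0.13) and Slc27a5 (-0.03 to 0.04). No paired analysis was possible between tissues because only NEJ146 had more than 1 section. The differences along the axis were taken within each tissue and were given no test. The spread between animals was not measured, the tissue area of NEJ146 rests on a depth threshold, and levels under 1 CPM rest on few UMIs.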
